A study of Mus musculus with 24 samples.

Results

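Gene expression at 8 h after sperm injection was compared with that of unfertilized oocytes in single mouse cells. The cells were taken by their titles: 3 embryos of 8 h made by intracytoplasmic sperm injection (ICSI, a sperm placed directly into the oocyte), and 3 metaphase II (MII) oocytes given as 0 h. They are 6 of the 24 single cells of a series that also holds 18 injected embryos of 2, 4, 6, 10 and 12 h, each on its own microarray. Cells of both groups are labelled as the B6D2F1 strain, a hybrid of 2 inbred strains. No genetic change and no drug is named for either group. The sperm came from B6D2F1 males of 8 to 12 weeks, and the sources used here do not give the age of the oocyte donors. The oocytes were not injected, so sperm and time in culture after injection separate the groups together and cannot be told apart. Per the labels, the poly(A) RNA of a single cell was bound to oligo-dT beads and its cDNA was amplified by PCR, so each value passed through the amplification of 1 cell. No label ties a cell to an animal, and a p-value reflects only how much these cells differ among themselves. The labels letter the cells a, c and d in both groups, and values are given in that order.

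A mature mouse oocyte waits in metaphase of the second meiotic division, held there by the kinase Mos and its pathway, with transcription silent and a large store of maternal mRNA. Sperm entry sets off calcium waves that end the arrest through the anaphase-promoting complex (APC/C), and the 1-cell embryo then forms pronuclei and replicates its DNA. Maternal mRNAs are shortened and destroyed on a schedule, others gain poly(A) tails and are translated, and a minor wave of embryonic transcription begins before the first cleavage. Capture by oligo-dT sees a gain or loss of poly(A) tail as well as a gain or loss of RNA, and here these cannot be told apart.

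Levels are given as log2 intensity, recovered from the scores that were deposited. The most common level of a probe was 6.85, which is called background here, and a change of a gene near it is understated. The 12 oocyte marker genes had mean levels of 9.85 or more in 8 h embryos and of 10.90 or more in oocytes. Their summed intensity, divided by 1000, was 178 to 210 in 8 h embryos, against 204 to 211 in oocytes. The 8 h embryos correlated with each other across genes at r = 0.82 to 0.85, and the oocytes with each other at 0.93 to 0.94. The median SD of a gene was 0.465 in 8 h embryos and 0.281 in oocytes. Arrays also differed in how many distinct levels they held, 5356 to 7341 on those of 8 h embryos and 7580 to 7856 on those of oocytes. A low number means that many probes share 1 value. With this number as a covariate 77 genes were called against oocytes, and without the 4 arrays with the lowest numbers 245, of which 51 and 52 were among the 175 called with neither change.

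At 8 h, 83 genes were higher and 92 were lower than in oocytes at a Benjamini-Hochberg adjusted p under 0.05 (limma, 19532 genes). These are 0.425% and 0.471% of the genes tested, 0.896% together, while 2606 genes (13.3%) had an unadjusted p under 0.05. The lower genes changed by a median of -3.14, from -6.16 to -0.69. The higher genes changed by a median of 1.28, from 0.51 to 4.44, against a median of 0.05 over all genes. In all 175 genes the 3 embryos and the 3 oocytes did not overlap, which was also true of 14.1% of all genes upward and 10.8% downward. The count was 50, 30 and 31 without oocytes a, c and d, and 27 (7 higher, 20 lower) with only these 6 arrays in the fit. Of the 45 called genes named by the rule given below, 6 kept their call without each single cell of the 2 groups: Taldo1, Tpra1, Slc12a7, Rnf130, Atf6b and Ebf1. Called genes picked out after their values were seen are not among the 45.

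The genes that were lower had been well measured in the oocyte. Of the 92, 79 lay over 2 log2 units above background in oocytes, and 50 were within 1 unit of it or below at 8 h. Their median level was 7.61 at 8 h, against 11.67 in oocytes. The genes that were higher were mostly at background before injection, 61 of the 83 within 1 unit of it or below in oocytes, with a median level of 8.43 at 8 h, against 6.96 in oocytes. Another 17 of the 83 were already over 2 units above background in oocytes. A gene at background cannot be seen to fall, so part of this contrast follows from the way genes are called. Of the 7441 genes over 2 units above background in oocytes, 17 were higher and 79 lower, and their median change was -0.18. Of the 9330 genes within 1 unit of background or below, 61 were higher and 2 lower, with a median change of 0.11.

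**Figure D1:**
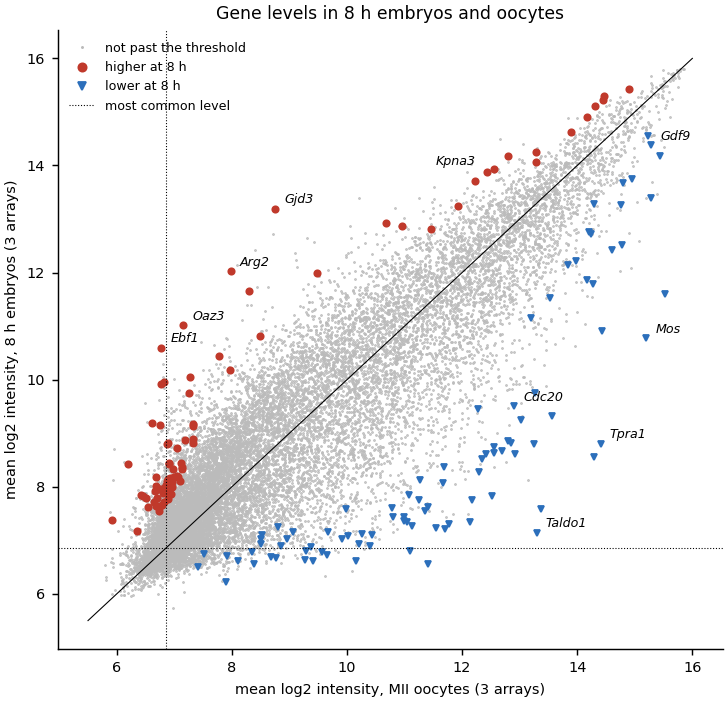
Mean log2 intensity of 19532 genes in 3 embryos of 8 h (vertical axis) against that in 3 MII oocytes (horizontal axis), with the diagonal of equal levels and dotted lines at the most common level, 6.85. The 83 higher genes (red circles) mostly leave the background of the oocyte, and the 92 lower genes (blue triangles) mostly start well above it, with 50 of them ending within 1 unit of it or below.

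The deepest fall was that of Taldo1, which encodes transaldolase, an enzyme of the non-oxidative branch of the pentose phosphate pathway. Taldo1 had log2 intensities of 6.83, 7.18 and 7.41 in the 3 embryos of 8 h, against 12.80, 13.31 and 13.79 in the 3 oocytes. Every embryo of 8 h was thus near background for a gene that was bright in every oocyte, a fall of over 5 units in each (change -6.16, SE 1.005, adjusted p = 0.0125). Vwa2, a secreted protein with von Willebrand factor A domains, had 7.05, 7.25 and 8.46 at 8 h, against 13.55, 13.02 and 13.52 in oocytes. Its change was -5.78 (SE 1.05, adjusted p = 0.0172). Tpra1, a transmembrane protein first described in fat cells, had 8.61, 10.29 and 7.50 at 8 h, against 14.38, 14.43 and 14.41 in oocytes. The oocytes were close together and the embryos were spread over nearly 3 units, all of them far below (change -5.60, SE 0.94, adjusted p = 0.0134).

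Slc12a7, a potassium and chloride cotransporter, had 7.29, 8.24 and 7.96 at 8 h, against 12.90, 12.47 and 12.20 in oocytes (change -4.70, SE 0.71, adjusted p = 0.0112). Efna1, an ephrin that binds Eph receptors on neighbouring cells, had 7.22, 7.20 and 7.48 at 8 h, against 12.25, 11.11 and 11.95 in oocytes (change -4.46, SE 0.995, adjusted p = 0.0361). In both genes all 3 embryos were within 1.5 units of background. Nfkbiz, a nuclear regulator of NF-kappaB target genes, changed by -4.45, C1qtnf12, a secreted C1q-like protein, by -4.80, and Has3, which makes hyaluronan, by -4.43. Among the embryos of 2 to 12 h other than 8 h, 18 of 18 lay below every oocyte for Taldo1, Vwa2, Tpra1 and Slc12a7, and 17 of 18 for Efna1, Nfkbiz, C1qtnf12 and Has3.

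The steepest rise was that of Gjd3, which encodes a connexin, a subunit of gap junction channels. Gjd3 had 12.77, 14.19 and 12.60 in 8 h embryos, against 8.52, 8.99 and 8.74 in oocytes (change 4.44, SE 0.93, adjusted p = 0.0283). Each embryo was more than 3 units above the highest oocyte. Arg2, the mitochondrial arginase, which splits arginine into ornithine and urea, had 12.45, 10.88 and 12.75 at 8 h, against 7.86, 8.77 and 7.32 in oocytes (change 4.04, SE 0.88, adjusted p = 0.032). Olfr976, an olfactory receptor gene, had 10.28, 10.17 and 10.88 at 8 h, against 7.82, 7.44 and 8.06 in oocytes (change 2.67, SE 0.59, adjusted p = 0.0332). In Gjd3 and Olfr976 all 18 embryos of the other times were also above every oocyte, and in Arg2 16 were. The 3 embryos of 8 h did not differ past the threshold from the other embryos in these genes (changes -0.15, 0.85 and 0.52, adjusted p = 0.978, 0.855 and 0.868).

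The rises of Oaz3, Ebf1 and Atp9b were spread more widely over the embryos. Oaz3, an antizyme of ornithine decarboxylase known from maturing sperm cells, had 10.96, 9.44 and 12.66 at 8 h, against 6.99, 7.40 and 7.09 in oocytes (change 3.86, SE 0.73, adjusted p = 0.0186). Ebf1, a transcription factor needed for B cell development, had 10.18, 8.71 and 12.90 at 8 h, against 6.89, 6.72 and 6.71 in oocytes (change 3.82, SE 0.62, adjusted p = 0.0125). Both were near background in every oocyte and above every oocyte in all 3 embryos, with embryo d highest and embryo c lowest. Atp9b, of the P4-type ATPase family, had 12.99, 10.57 and 11.39 at 8 h, against 8.40, 7.84 and 8.68 in oocytes (change 3.34, SE 0.72, adjusted p = 0.0314).

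Some large rises rested on fewer of the cells. Acbd4, an acyl-CoA binding protein, had 7.31, 10.92 and 11.53 at 8 h, against 6.64, 6.64 and 7.01 in oocytes (change 3.16, SE 0.68, adjusted p = 0.0314). Slc35f1, of the solute carrier family 35, had 7.25, 10.74 and 11.90 at 8 h, against 6.78, 6.83 and 6.84 in oocytes (change 3.15, SE 0.73, adjusted p = 0.0428). Embryo a was close to background in both genes, and embryos c and d were 3 or more units above every oocyte. Nr0b2, a nuclear receptor that represses transcription and lacks a DNA-binding domain, had 13.79, 11.21 and 10.95 at 8 h, against 9.13, 10.11 and 9.18 in oocytes. Here embryo a was highest and the groups were less than 1 unit apart at their nearest (change 2.51, SE 0.58, adjusted p = 0.0433). Ppcdc, an enzyme of coenzyme A synthesis, changed by 2.78, C1s2, a complement protease, by 2.58, and Sec14l4, a lipid-binding protein, by 2.50. Without embryo a the change of Nr0b2 was 1.61 and not past the threshold. Leaving out the 4 arrays with the fewest distinct levels removes embryos c and d. The changes of Acbd4 and Slc35f1, 0.55 and 0.44, are then those of embryo a alone.

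**Figure D2:**
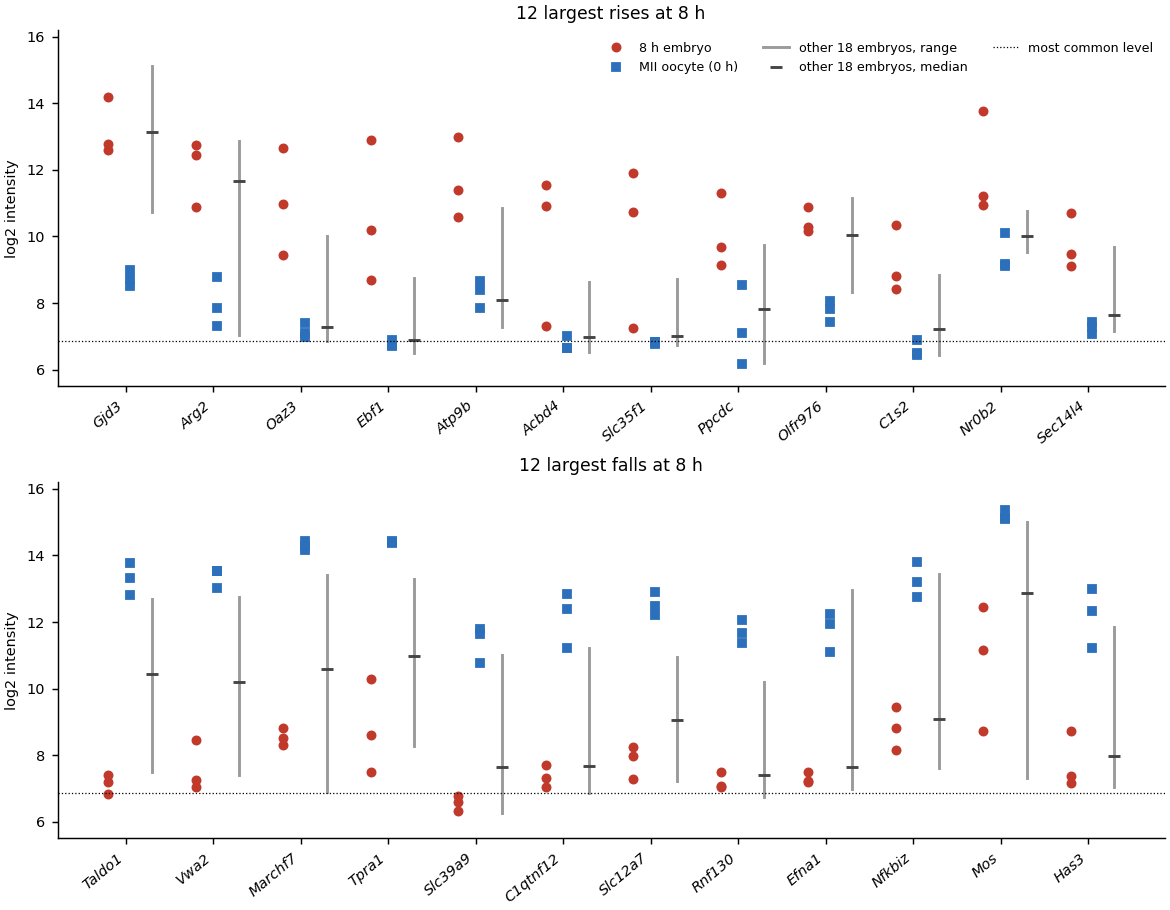
Log2 intensity of the 12 genes with the largest rises (top) and the 12 with the largest falls (bottom) in each 8 h embryo (red circles) and each MII oocyte (blue squares), with the range and median of the 18 embryos of other times (grey bars) and the most common level (dotted line, 6.85). Embryos of 8 h and oocytes do not overlap in any of the 24 genes; for Gjd3, Arg2 and Olfr976 the other embryos lie mostly with the 8 h embryos, and for Oaz3, Ebf1, Acbd4 and Slc35f1 mostly with the oocytes.

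These levels are each of 1 probe, the brightest of its gene over all arrays. Of the genes that were lower, 26 had another probe over 1 unit above background, and 27 of those 33 probes changed in the same direction. Rnf130, a RING finger ubiquitin ligase, changed by -4.49. A second probe of it, which was dimmer over all arrays, was at 6.62 at 8 h and 11.04 in oocytes, a change of -4.41. Marchf7, of the membrane-associated RING finger ligases, changed by -5.74. Of its 2 other probes, a bright one changed by 1.58 with groups that did not overlap, and a dimmer one by -1.24 with groups that overlapped, so its probes disagree on the direction. Among the higher genes only 4 had another bright probe, and 5 of those 9 probes changed in the same direction. The second probes of Atp9b, Slc35f1 and Ppcdc were near background in both groups, with levels at 8 h of 7.31, 6.99 and 6.48, against 6.82, 7.08 and 6.45 in oocytes. The other probes of Ebf1 were at 6.84 and 6.97 at 8 h, against 7.29 and 6.88 in oocytes, so its rise was seen by 1 probe of 3.

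Promoter sequences were set beside the calls because the embryo starts to transcribe its own genome within the 1-cell stage. NCBI RefSeq (GRCm38.p6) gave windows from 250 bases before to 50 after a gene's start for 62 of the 83 higher genes, 78 of the 92 lower genes and 15594 of all genes. Of the 12 largest rises 6 had windows. Those of Nr0b2, Olfr976 and Slc35f1 are shown, chosen after the search as windows with a TATA box or several motifs, as the 250 bases before the start in the direction of transcription. Of the windows not shown, both of Ebf1 have none of the motifs searched, that of C1s2 has a CCAAT box alone, and that of Ppcdc has a CCAAT box and a GC box. Capitals mark the GC box (GGGCGG), which reads CCGCCC on the other strand. They also mark the CCAAT box and the TATA box (written TATAAA here).
Nr0b2, chr4:133553126-133553375, plus strand: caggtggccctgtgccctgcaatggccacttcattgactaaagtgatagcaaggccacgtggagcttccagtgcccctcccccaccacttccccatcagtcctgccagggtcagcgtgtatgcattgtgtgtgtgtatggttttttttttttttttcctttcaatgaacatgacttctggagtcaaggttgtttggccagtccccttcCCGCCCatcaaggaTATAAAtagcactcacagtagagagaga
Olfr976, chr9:39961045-39961294, minus strand: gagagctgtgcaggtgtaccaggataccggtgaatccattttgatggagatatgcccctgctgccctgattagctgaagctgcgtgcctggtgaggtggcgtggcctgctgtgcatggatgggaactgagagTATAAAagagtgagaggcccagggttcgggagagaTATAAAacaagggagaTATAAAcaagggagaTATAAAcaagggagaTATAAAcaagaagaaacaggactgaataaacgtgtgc
Slc35f1, chr10:52690251-52690500, plus strand: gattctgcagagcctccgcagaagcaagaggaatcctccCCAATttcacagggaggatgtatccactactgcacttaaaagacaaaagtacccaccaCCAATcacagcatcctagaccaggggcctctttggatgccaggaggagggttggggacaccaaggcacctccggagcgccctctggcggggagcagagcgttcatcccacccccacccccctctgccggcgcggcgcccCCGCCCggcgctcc

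The Nr0b2 promoter held a TATA box starting 28 bases before the gene's start, and the window of Olfr976 shown held it 5 times, 118 to 37 bases before the start. Olfr976 has 2 annotated starts, and the window of the other held a CCAAT box and no TATA box. That of Slc35f1 held a CCAAT box at 211 and 153 bases before it and no TATA box. Over whole windows, both strands searched, the TATA box was in 16.7% of the 78 windows of higher genes and in 5.43% of the 92 windows of lower genes, against 11.5% of the 19205 windows of all genes. The GC box, bound by Sp1-like factors, was in 39.7% of windows of higher genes and 70.7% of those of lower genes, against 49.6% of all. The CCAAT box was in 42.3% of windows of higher genes and 38.0% of windows of lower genes, against 37.9% of all. TAATCC, the site of homeodomain factors such as Otx and Pitx, was in 7.69% of windows of higher genes and 3.26% of windows of lower genes, against 6.4% of all. The lower genes were bright in the oocyte and the higher ones mostly dim, so these shares also compare genes of different levels, and no test was made.

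The machinery of the meiotic arrest and its release was described by 2 lists, in which 4 genes fell and 0 rose. Of 40 measured genes of metaphase II arrest and the APC/C, 2 were lower (5.0%, median change of the list -0.30). Of 34 genes of the spindle checkpoint and the central spindle, 2 were lower (5.88%, median -0.32). The called share of all genes was 0.896%. Mos, the kinase that keeps MAP kinase active in the arrested oocyte, had 11.15, 12.45 and 8.72 in 8 h embryos, against 15.11, 15.38 and 15.12 in oocytes. Every embryo was lower than every oocyte, by amounts that ran from under 3 to over 6 log2 units (change -4.43, SE 0.83, adjusted p = 0.0178). Cdc20, the activator of the APC/C in anaphase, had 10.41, 8.99 and 9.10 at 8 h, against 13.10, 12.97 and 12.66 in oocytes (change -3.41, SE 0.78, adjusted p = 0.0403). Prc1, which bundles microtubules of the central spindle, had 8.91, 7.64 and 6.11 at 8 h, against 11.79, 11.57 and 10.72 in oocytes (change -3.81, SE 0.82, adjusted p = 0.0314). Kif23, a kinesin of the spindle midzone, had 14.40, 12.78 and 12.97 at 8 h, against 15.23, 15.38 and 15.25 in oocytes (change -1.91, SE 0.36, adjusted p = 0.0186). A second bright probe of Kif23 changed by -0.84 and overlapped between groups.

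Other members of these lists did not pass. Ccnb2, a B-type cyclin, was at 12.69 ± 0.87 in 8 h embryos and 13.30 ± 0.17 in oocytes (SD, n = 3 each, adjusted p = 0.757), and Cdk1, its kinase partner, at 10.30 ± 1.84 at 8 h and 9.38 ± 0.59 in oocytes (adjusted p = 0.701). Fbxo43, also called Emi2, which inhibits the APC/C during the arrest, was at 13.78 ± 0.31 at 8 h and 14.11 ± 0.11 in oocytes (adjusted p = 0.72). Aurkc, an Aurora kinase of the oocyte, was at 15.63 ± 0.07 at 8 h and 15.70 ± 0.09 in oocytes (adjusted p = 0.853). Cdc16, an APC/C subunit, had 1 of the widest shifts, 12.43 ± 0.69 at 8 h and 8.39 ± 1.40 in oocytes, and missed the threshold (change 4.03, SE 1.07, adjusted p = 0.0703). It was picked out after its value was seen.

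Among the listed maternal transcripts 1 rose and 1 fell. Of 31 measured oocyte maternal genes these 2 are 6.45%, against 0.896% of all genes tested, 29 did not pass, and the median change was -0.03. Gdf9, a growth factor that the oocyte secretes to its follicle cells, had 14.65, 14.36 and 14.14 at 8 h, against 15.27, 15.36 and 15.23 in oocytes (change -0.91, SE 0.21, adjusted p = 0.046). Sebox, a homeobox gene of oocytes, was at 13.71 ± 0.25 at 8 h and 12.22 ± 0.21 in oocytes, with every embryo above every oocyte (change 1.48, SE 0.36, adjusted p = 0.0497). Both shifts were small beside the falls above, and both calls were lost in many of the 17 settings run, 12 for Gdf9 and 13 for Sebox.

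For Bmp15, the partner of Gdf9, levels were 13.52 ± 0.16 at 8 h and 14.13 ± 0.15 in oocytes (adjusted p = 0.343). Btg4, an adaptor that brings the deadenylase to maternal mRNA, was at 14.58 ± 0.18 at 8 h and 14.15 ± 0.14 in oocytes (adjusted p = 0.414), and Dppa3, which protects maternal DNA methylation, at 14.70 ± 0.24 at 8 h and 14.05 ± 0.28 in oocytes (adjusted p = 0.235). The zona pellucida genes Zp2 and Zp3 were at 12.43 ± 0.65 and 9.98 ± 1.02 at 8 h, against 12.51 ± 0.41 and 11.97 ± 1.43 in oocytes, and their groups overlapped. Of 48 genes of mRNA decay and deadenylation, 1 was lower and 0 higher (2.08%, against 0.896% of all genes, median change -0.03). It was Cnot11, a subunit of the CCR4-NOT deadenylase, with 12.60, 13.56 and 11.09 at 8 h, against 14.67, 14.52 and 14.61 in oocytes (change -2.18, SE 0.46, adjusted p = 0.0285). Of 26 genes of mRNA storage and polyadenylation 0 passed with limma, and the median change was -0.48. An unadjusted p under 0.05 was found for 4 of them, against 13.3% of all genes. Dazl and Lsm14b, which bind stored mRNAs, were at 14.02 ± 0.10 and 15.11 ± 0.07 at 8 h, against 14.55 ± 0.18 and 15.03 ± 0.12 in oocytes. The other probe of Dazl changed by -2.01 without overlap, and that of Lsm14b by -0.18 with overlap.

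Ubiquitin ligases, zinc transporters and the secretory pathway held most of the other falls within the lists. These lists were drawn up with earlier results of the same arrays known, so their counts are no independent evidence of a direction. Of 61 ubiquitin ligases and adaptors, 4 were lower and 0 higher, 6.56% against 0.896% of all genes (median change -0.20). They were Marchf7 and Rnf130, already described, Klhl18, an adaptor of cullin 3, and Dcun1d2, which helps to activate cullins. Klhl18 had 9.39, 8.49 and 6.96 at 8 h, against 12.06, 12.30 and 12.51 in oocytes (change -4.01, SE 0.79, adjusted p = 0.0206), and its other bright probe changed by -3.24. Dcun1d2 changed by -4.02 (SE 0.95, adjusted p = 0.0466).

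Zinc is released from the mouse egg at activation, and the genes that move it across membranes belong to the Slc30 and Slc39 families. Of 28 measured zinc transporters and metallothioneins, 3 were lower and 0 higher, 10.7% against 0.896% of all genes, with a median change of -0.05. Slc39a9, an importer of the ZIP family, had 6.31, 6.78 and 6.58 at 8 h, against 11.65, 10.76 and 11.79 in oocytes (change -4.84, SE 0.90, adjusted p = 0.0178). All 3 embryos were at or below background. Slc30a5, an exporter into the early secretory pathway, had 9.73, 8.72 and 7.39 at 8 h, against 12.78, 13.06 and 12.93 in oocytes (change -4.31, SE 0.98, adjusted p = 0.0385), and its other bright probe changed by -4.84. Slc30a4, an exporter into vesicles, was at 7.61 ± 0.62 at 8 h, against 11.41 ± 0.25 in oocytes, with no overlap (change -3.80, SE 0.91, adjusted p = 0.0484). In the 17 settings run, the call of Slc30a4 was lost in 12, that of Slc30a5 in 10 and that of Slc39a9 in 4. Slc39a10, another importer, was at 11.82 ± 0.60 at 8 h and 12.26 ± 0.15 in oocytes (adjusted p = 0.753), and the metallothionein gene Mt1 at 12.13 ± 0.89 at 8 h and 11.79 ± 0.38 in oocytes (adjusted p = 0.864).

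Genes of the endoplasmic reticulum had the lowest median of the lists. Of 32 genes of the unfolded protein response, which adjusts folding capacity in that compartment, 2 were lower and 0 higher, with a median change of -0.75. These are 6.25%, against 0.896% of all genes. At an unadjusted p under 0.05, 13 of the 32 passed, 11 lower and 2 higher, against 13.3% of all genes. Atf6b, a membrane-bound transcription factor released under stress, had 10.41, 9.55 and 9.31 at 8 h, against 12.95, 13.35 and 13.52 in oocytes (change -3.51, SE 0.59, adjusted p = 0.0134). Dnajb11, a co-chaperone of BiP, was at 8.82 ± 0.86 at 8 h and 12.85 ± 0.48 in oocytes, with no overlap (change -4.03, SE 0.91, adjusted p = 0.037). The chaperones Calr and Canx were at 14.12 ± 0.39 and 13.40 ± 0.78 at 8 h, against 14.16 ± 0.15 and 14.16 ± 0.18 in oocytes, with overlapping groups.

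Of 49 membrane proteins of the secretory pathway, 2 were lower and 0 higher (4.08%, against 0.896% of all genes, median -0.19). Tmed9, a cargo receptor between the endoplasmic reticulum and the Golgi, had 7.44, 10.53 and 7.89 at 8 h, against 11.81, 12.49 and 12.97 in oocytes (change -3.80, SE 0.88, adjusted p = 0.0428). Tm9sf2, of the nine-transmembrane family of the Golgi and endosomes, had 13.41, 13.44 and 14.16 at 8 h, against 14.77, 14.75 and 14.85 in oocytes (change -1.12, SE 0.23, adjusted p = 0.0277). The fall of Tm9sf2 was small, and its other bright probe changed by -0.52 with groups that overlapped.

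Metabolic lists moved in single genes. In the pentose phosphate and glutathione list Taldo1 was the 1 called gene of 28 (3.57%, against 0.896% of all genes, median change -0.23). Tkt, the transketolase that works beside transaldolase, was at 8.56 ± 2.10 in 8 h embryos and 9.75 ± 1.07 in oocytes, with groups that overlapped (adjusted p = 0.669). Prdx1 and Prdx2, peroxiredoxins that remove hydrogen peroxide, were at 15.55 ± 0.14 and 14.89 ± 0.47 at 8 h, against 15.27 ± 0.04 and 13.85 ± 0.34 in oocytes (adjusted p = 0.386 and 0.086). In the list of polyamine and arginine metabolism Arg2 and Oaz3 were higher, 2 of 26 (7.69%), with 0 lower and a median change of 0.03. Odc1, ornithine decarboxylase, the enzyme that antizymes inhibit, was at 13.07 ± 0.55 at 8 h and 13.25 ± 0.08 in oocytes (adjusted p = 0.914), while another bright probe of it changed by -3.16. Oaz1, the widely expressed antizyme, was at 14.79 ± 0.10 at 8 h and 14.20 ± 0.19 in oocytes, with no overlap and an adjusted p of 0.233.

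The oxidative phosphorylation list had a median change of -0.01 with 0 of 65 called by limma and 9 at an unadjusted p under 0.05. For the counts at that level given here, the share over all genes was 13.3%. The cytosolic ribosomal proteins had a median of 0.01, 0 of 71 called and 10 at that unadjusted level. For proteasome genes these were -0.20, 0 of 41 and 3, for splicing factors -0.12, 0 of 63 and 7, for chaperones -0.10, 0 of 33 and 5, and for RNA polymerase II, general factors and Mediator -0.29, 0 of 78 and 12. The 32 histone genes had a median of 0.10, 0 called and 7 at that unadjusted level. Of the 53 genes of DNA replication and licensing, 1 was lower and 0 higher (1.89%, against 0.896% of all genes, median -0.38). It was Hus1, a subunit of the 9-1-1 checkpoint clamp, with 7.74, 9.22 and 8.91 at 8 h, against 12.75, 12.60 and 12.32 in oocytes (change -3.94, SE 0.83, adjusted p = 0.0285). Its 2 other probes changed by -4.55 and -2.96.

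In each of 2 lists tied to the embryo's own genome 1 gene rose. Of 24 measured 2-cell-stage genes, which are known from the later main wave of transcription, 1 was higher, Arg2, which is 4.17% against 0.896% of all genes, and 0 were lower (median change 0.28). Zfp352, a zinc finger gene of that wave, was at 7.83 ± 0.50 in 8 h embryos and 7.23 ± 0.24 in oocytes (adjusted p = 0.819), and Eif1a, a translation initiation factor gene used as its marker, at 8.07 ± 0.24 at 8 h and 8.10 ± 0.66 in oocytes (adjusted p = 0.993). Of 41 immediate early and stress genes 0 were called by limma (median -0.01). An unadjusted p under 0.05 was found for 6 of them, against 13.3% of all genes. In the list of pluripotency and early transcription factors Ebf1 was the 1 called gene of 33, or 3.03% (median -0.12). In the sterol and lipid list it was Acbd4, of 32, or 3.125% (median 0.11).

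Single genes also rose in lists of chromatin, nuclear transport, translation and calcium signalling. Called shares were 1.61% for chromatin, 2.38% for nuclear transport and 2.13% for translation, against 0.896% of all genes. Kat2b, a histone acetyltransferase, had 8.52, 7.74 and 8.09 at 8 h, against 7.17, 7.17 and 6.96 in oocytes, the 1 called gene of 62 in its list (change 1.01, SE 0.23, adjusted p = 0.037). The other probes of Kat2b, near background, changed by -0.04 and 0.18 with overlapping groups. Kpna3, an importin that carries proteins into the nucleus, had 14.29, 13.78 and 13.54 at 8 h, against 12.60, 12.37 and 12.31 in oocytes, 1 of 42 (change 1.45, SE 0.29, adjusted p = 0.0216). Other bright probes of Kpna3 changed by 0.27 and 0.03 with overlapping groups, so its rise was seen by 1 probe of 3. Eif2b3, a subunit of the exchange factor that recharges eIF2, had 11.40, 7.79 and 8.26 at 8 h, against 6.76, 6.70 and 6.79 in oocytes, 1 of 47 (change 2.40, SE 0.53, adjusted p = 0.0332). Most of that mean change lay in embryo a, without which it was 1.28 and still past the threshold.

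Of 32 genes of calcium signalling at egg activation, 2 were higher and 0 lower (6.25%, against 0.896% of all genes, median -0.12). Orai2, a calcium channel subunit, had 7.44, 7.30 and 7.41 at 8 h, against 6.03, 5.89 and 5.83 in oocytes (change 1.47, SE 0.30, adjusted p = 0.0255), levels that were all within 1.1 units of background. Plcz1, the phospholipase by which the sperm starts the calcium waves, had 7.88, 8.43 and 7.63 at 8 h, against 7.51, 6.66 and 6.63 in oocytes (change 1.05, SE 0.25, adjusted p = 0.0454). Oocyte a lay just below the nearest embryo, and the second probe of Plcz1 changed by 0.38 with overlapping groups. Itpr2 and Orai1, further channels of the calcium response, were at 15.08 ± 0.39 and 14.17 ± 0.08 at 8 h, against 15.53 ± 0.14 and 14.29 ± 0.40 in oocytes (adjusted p = 0.48 and 0.944). The dimmer probes of Itpr2 disagreed, with changes of 2.84 in 1 and -1.36 in another, both without overlap.

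**Figure D3:**
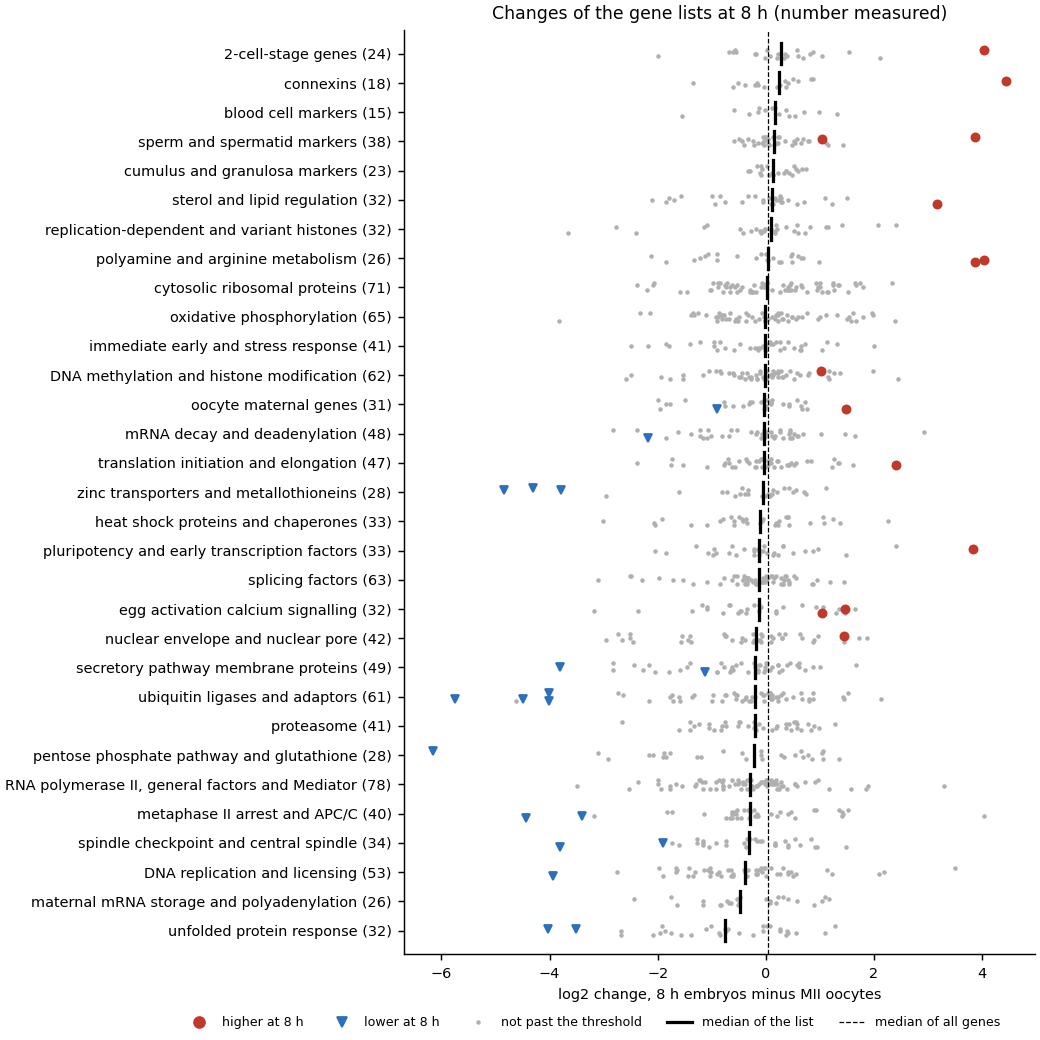
Log2 change, 8 h embryos minus MII oocytes, of every measured member of 31 gene lists (number measured in parentheses), with members past the threshold in red or blue, the median of each list as a black bar and the median of all genes, 0.05, as a dashed line. List medians lie between -0.75 (unfolded protein response) and 0.28 (2-cell-stage genes), and called members are single genes, with at most 4 in 1 list.

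Markers of cells other than the embryo were followed because a sperm is injected and cumulus cells surround the oocyte in the follicle. Of 38 sperm and spermatid genes 2 were higher, Oaz3 and Plcz1, and 0 lower (5.26%, against 0.896% of all genes, median change 0.14). The 13 measured of 14 defining sperm markers had a summed intensity of 24.7 to 31.5 in 8 h embryos and 11.9 to 17.1 in oocytes, divided by 1000 as above, and Odf1, Smcp and Pgk2 were near background in all 3 embryos. Prm1, a protamine, was at 12.53 ± 0.31 at 8 h and 11.38 ± 0.12 in oocytes (adjusted p = 0.0675). The 23 measured of 26 cumulus and granulosa markers summed to 13.99 to 15.37 at 8 h and 9.56 to 10.3 in oocytes. Of these, 10 were near background in all 3 embryos and 18 in all 3 oocytes. By limma 0 were called, with 1 at an unadjusted p under 0.05, a level reached by 13.3% of all genes. The 6 measured of 8 blood cell markers summed to 15.5 to 19.5 at 8 h and 9.19 to 14.1 in oocytes. All 3 sums were thus higher in every 8 h embryo than in every oocyte, but a sum mostly reflects its brightest genes. Amh, a cumulus and granulosa marker, had means of 13.21 at 8 h and 12.47 in oocytes. Gapdhs, a sperm marker, had 13.23 and 11.81, and Hbb-bt, a blood marker, 13.98 and 13.27. The other probes of Hbb-bt were near background, at 6.94 to 7.32 at 8 h. So were those of the sperm markers Gapdhs and Prm1. The other probe of Gapdhs was at 7.82 at 8 h and 7.74 in oocytes, with overlapping groups. Those of Prm1 were at 7.52 and 7.25 at 8 h, against 7.21 and 6.715 in oocytes. The part of these other cells in the rises was not tested.

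The 3 embryos of 8 h shared the direction of the called genes and differed in size. Against the mean of the oocytes, 607, 780 and 935 genes of all 19532 were higher by 2 or more log2 units in embryos a, c and d, and 792, 880 and 1331 were lower by as much. Embryo d had the most of both. Embryos a, c and d held 7341, 5763 and 5356 distinct levels, so the embryo with the fewest levels also had the most large differences. The median change of the 83 higher genes was 1.42, 1.22 and 1.25 in the 3 embryos, and that of the 92 lower genes -2.82, -2.75 and -3.22.

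To see what was particular to 8 h, the same 3 embryos were compared with the other injected embryos, as the mean of their 5 group means. Here 107 genes were higher and 5 lower (0.548% and 0.0256% of those tested, 0.573% together), and 1578 (8.08%) had an unadjusted p under 0.05. The comparison shares its 3 embryos with the one against oocytes, so the values of both are given side by side and are not independent. Of the 107 genes, 100 lay within 1 unit of background or below in the other embryos and 101 in oocytes, with a median change of 1.23. The count was 5 among the upper 60% of genes by level, 61 with only the embryos in the fit and 73 with a replicate block. It was 132, 162 and 125 without 8 h embryos a, c and d, all above the count with every embryo. Only 51, 71 and 66 of these were among the 112 called with every embryo, so the genes called changed with the embryos used.

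Ebf1 and Oaz3 were the highest of these over the other embryos. Ebf1 was at 6.49 to 8.75 in the 18 other embryos, with a median of 6.90, and the 8 h embryos were 3.54 above them (SE 0.47, adjusted p = 0.000849). Only the lowest embryo of 8 h, at 8.71, lay within that range. Oaz3 was at 6.87 to 10.02 in the other embryos, with a median of 7.28 (difference 3.46, SE 0.56, adjusted p = 0.00495). Sdhaf1, an assembly factor of succinate dehydrogenase, had 12.23, 8.71 and 12.76 at 8 h, against 6.79 to 10.32 in the other embryos, with a median of 7.72 (difference 3.27, SE 0.74, adjusted p = 0.0436). It was at 7.20, 7.19 and 8.37 in oocytes, from which it did not differ past the threshold (change 3.65, adjusted p = 0.0706). Atp9b, Acbd4, Slc35f1, Ppcdc, C1s2, Nr0b2, Sec14l4, Eif2b3, Kat2b and Plcz1 were also above the other embryos past the threshold.

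The 5 genes below the other embryos were Trappc1, Coprs, 9130409I23Rik, Pnrc1 and Wdr37, the last 2 named after their values were seen. Trappc1, a subunit of the TRAPP complex that tethers transport vesicles, had 6.64, 6.79 and 6.82 at 8 h, against 8.63 to 12.85 in the 18 other embryos, with a median of 10.73 (difference -3.88, SE 0.64, adjusted p = 0.00589). All 3 embryos of 8 h were at background and no other embryo was. Trappc1 was at 9.33, 9.46 and 8.82 in oocytes, and the change from them did not pass (-2.45, adjusted p = 0.173). Coprs, a histone-binding partner of the arginine methyltransferase PRMT5, had 7.53, 9.16 and 8.22 at 8 h, against 8.49 to 13.46 in the other embryos, with a median of 11.39 (difference -3.15, SE 0.67, adjusted p = 0.0336). 9130409I23Rik, an uncharacterized gene, had 6.98, 7.84 and 6.995 at 8 h, against 7.18 to 11.86 in the other embryos and 10.89, 11.17 and 11.31 in oocytes. It was low against both (differences -2.50 and -3.85, adjusted p = 0.0366 and 0.0176).

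The genes with the largest falls from the oocyte lay at different levels in the other embryos. For Rnf130, Has3 and Efna1 these had medians of 7.41, 7.96 and 7.63, and the 8 h embryos differed from them by -0.62, -0.58 and -0.77 (adjusted p = 0.857, 0.881 and 0.877). Taldo1 had a median of 10.45 in the other embryos, from 7.49 to 12.68, and all 3 embryos of 8 h lay below that range (difference -3.23, SE 0.77, adjusted p = 0.0591). Vwa2, Tpra1 and Marchf7 had medians of 10.21, 10.98 and 10.58 in the other embryos, and none of the 3 differed past the threshold (adjusted p = 0.204, 0.174 and 0.65). Mos had a median of 12.88 there, with a difference of -1.65 (adjusted p = 0.417).

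**Figure D4:**
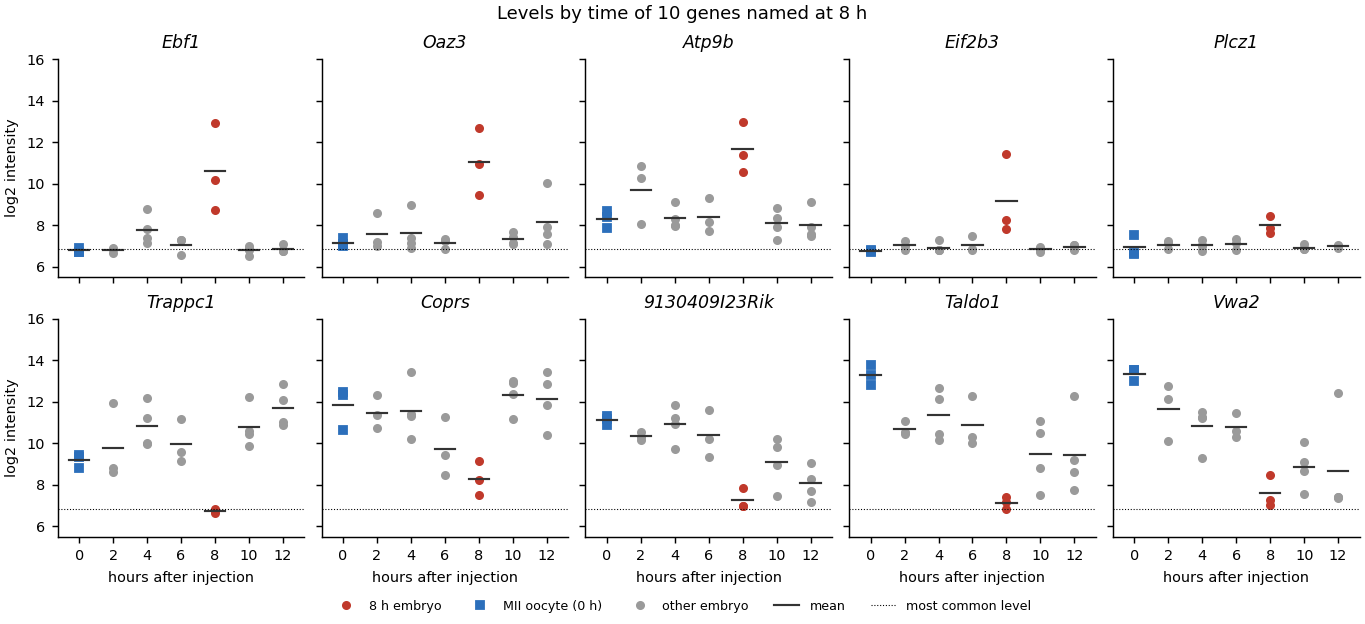
Log2 intensity of 10 genes by hours after injection, with the 8 h embryos in red, MII oocytes (0 h) as blue squares, other embryos in grey, group means as bars and the most common level, 6.85, as a dotted line. Ebf1, Oaz3, Atp9b, Eif2b3 and Plcz1 have their highest group mean at 8 h, and Trappc1, Coprs, 9130409I23Rik, Taldo1 and Vwa2 their lowest.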

How the data were processed

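Members and gene lists were chosen with earlier results of these data known. The deposited values are scores, 1 per probe and array, quantile-like in distribution (column medians 1.16 to 1.18). Per the submitters' processing notes limma was used; the sources used here do not give the scanner, the background correction or the dye behind the values, and the labels' protocols name a digoxigenin sample and a biotin reference while the label field names biotin. The planned test asked for log2 values, so log2 intensity was recovered. The scores fit a natural log taken 2 times, shifted to 0 and divided by 0.225, because the steps between levels then become whole multiples of 1/48 of a unit: 100% of 20989 steps above an intensity of 300, and 10.5% of 813 below 100 (tolerance 0.05 of a step). Intensities ran from 51.5 to 59424. A lowest value just above 50 is what a background correction with an offset near 50 would leave, so changes near background may be understated. On 40000 probes simulated with this same scale, the largest log2 error was 1.2e-08. That checks the computation and cannot show that the deposited scores follow the scale.

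Platform annotation gave 1 symbol for 32664 of 41174 probes, several for 45 and none for 8465. Of these probes 32524 matched the RefSeq table (GRCm38.p6), which changed 0 symbols. The probe with the highest mean stood for a gene (19532 genes, 8511 with more than 1 probe). All 24 arrays entered 1 fit of 7 group means (limma 3.58.1, R 4.3.3, lmFit and eBayes with trend, two-sided, Benjamini-Hochberg over all genes, 2 contrasts). Each SE is from that fit, with the spread pooled over the 7 groups. In simulated data with 19532 genes, changes were planted only in genes with a mean over 1 unit above background. For 8 h minus 0 h, 0% of changes of 1 log2 unit were found, 16.4% of 2 and 63.6% of 4, with 0 false calls. Against the other embryos these were 2.99%, 41.8% and 78.8%, with 10 false calls. The real calls against oocytes did include changes under 1 unit. Of the 83 higher genes 66 changed by 1 or more, and of the 92 lower genes 88. The smallest mean absolute difference between any pair of arrays was 0.463, so no array was a copy of another. Named genes were the 12 largest rises and falls among called genes without overlap, every called list member, up to 4 bright members per list, fixed genes, and 3 in each direction against the other embryos; exceptions are marked. The number of arrays limits precision. Alternatives covered the scale, filters, probes, variance model, weights, replicate block and arrays left out.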

Additional observations from a re-analysis of the deposited data

Results flagged for a closer look

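In all, 19 genes named here differed between the 8 h embryos and the injected embryos of the other times, by a test of that difference in the same fit (adjusted p under 0.05). The comparison shares its 8 h embryos with the one against oocytes. Higher at 8 h were Ebf1 by 3.54, Oaz3 by 3.46, Sdhaf1 by 3.27, Atp9b by 3.14, Acbd4 by 2.80, Slc35f1 by 2.66, Ppcdc by 2.26, Eif2b3 by 2.21, Nr0b2 by 1.96, C1s2 by 1.89, Sec14l4 by 1.88, Neat1 by 1.17, Kat2b by 1.04 and Plcz1 by 0.97 log2 units. Lower at 8 h were Trappc1, Coprs, 9130409I23Rik, Pnrc1 and Wdr37, with differences of -3.88, -3.15, -2.50, -2.13 and -1.70. Against oocytes the probe used for Wdr37 changed by -1.595. Its other probes well above background changed by -0.49, -0.60 and 0.45, all with overlapping groups. Neat1, Pnrc1 and Wdr37 were named after their values were seen. In Ebf1, Oaz3 and Trappc1 the difference passed without each single 8 h embryo, and ranged over those 3 settings from 2.39 to 4.49, from 2.64 to 4.25 and from -3.91 to -3.82. The calls of Sdhaf1, Coprs and 9130409I23Rik were each lost without embryo a and without embryo d.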

How the results depend on the processing

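Against oocytes, the 175 calls became 99 (27 higher, 72 lower) among the upper 60% of genes by level, 594 (326 and 268) with array weights, which rate the oocytes highest, 27 (7 and 20) with only the 6 arrays in the fit, and 77 (41 and 36) with the number of distinct levels as a covariate, which was chosen after seeing the data. Leaving out 1 cell gave 30 to 185 calls: 50, 30 and 31 without oocytes a, c and d, and 185, 171 and 155 without embryos a, c and d, of which 88, 94 and 88 were among the 175. Without the 4 arrays with the fewest distinct levels, also chosen after seeing the data, there were 245 calls (209 higher, 36 lower, 52 shared); this leaves 1 embryo at 8 h, which is assumed to vary like the other groups. Lower genes were the majority in the main result, and higher genes were without the trend (95 and 89), with values below background set to it (122 and 100), with weights, with the covariate, without each of the embryos a, c and d (107, 101 and 102 higher), and without those 4 arrays. Against the other embryos, the 112 calls became 5 among the upper 60% of genes, 74 with array weights, 73 with a replicate block, 61 with only the 21 embryos, and 239 without the 4 arrays, and 125 to 162 without 1 embryo of 8 h. The labels do not say whether the replicate letters pair the cells. Same-letter deviations of embryos and oocytes correlated at 0.01, 0.03 and 0.05, each the highest for its embryo. For embryo a the value with oocyte c was nearly as high, at 0.00955. Correlations this small do not settle whether the letters pair the cells. A replicate block gave 179 calls (147 shared) against oocytes. Among genes named by the rule, no change reversed its sign under any of these settings where it was past the threshold. Causes were not tested. In simulated data few changes of 2 log2 units were found, so a gene that missed the threshold is not shown to be unchanged. Saturated spots were not marked.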

Other observations

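The following called genes were chosen after their values were seen, for what they encode, so they are examples and no test of a theme. Ext1 and Ext2, which encode the pair of enzymes that together polymerise heparan sulfate chains, were both lower at 8 h. Ext1 was at log2 11.29, 11.26 and 12.02 in 8 h embryos, against 13.42, 13.66 and 13.53 in oocytes. The difference was -2.01 (limma SE 0.38 from the fit of all 24 arrays, adjusted p = 0.0186). Ext2 averaged 7.85 in 8 h embryos, with 8.32 in the highest, against 11.08 in oocytes, with 9.66 in the lowest (difference -3.23, limma adjusted p = 0.0134). The groups did not overlap in either gene, and 17 of the 18 injected embryos of the other times for Ext1 and 18 for Ext2 were below every oocyte.

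Il1r1, an interleukin 1 receptor, was at log2 7.51, 6.95 and 7.02 in 8 h embryos, near the background level, against 9.12, 8.90 and 10.97 in oocytes (difference -2.50, limma adjusted p = 0.0188). Il1rap, its accessory subunit, was at 8.86, 7.96 and 8.28 in 8 h embryos, against 11.66, 11.59 and 11.79 in oocytes (difference -3.31, limma adjusted p = 0.032). Neither gene's groups overlapped. The 4 other probes of Il1rap lay near background, with differences from -0.45 to 0.94, so its change rests on 1 probe. Plat, which encodes tissue-type plasminogen activator, was at 13.36, 10.38 and 11.09 in 8 h embryos, against 15.59, 15.29 and 15.68 in oocytes (difference -3.91, limma adjusted p = 0.0287). The 8 h embryos spread widely in this gene, yet each was below every oocyte. Of its 2 other probes, one differed by -1.63 in the same direction and the other, at background, by 0.60 in the opposite direction. Neat1, a nuclear long noncoding RNA that builds paraspeckles, was at 8.09, 8.35 and 8.87 in 8 h embryos, against 7.19, 6.74 and 6.79 in oocytes (difference 1.53, limma adjusted p = 0.0186), and was also higher at 8 h than in the other injected embryos by 1.17 (limma adjusted p = 0.0155).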
